A study of Brassica napus with 12 samples.

Results

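Under water, 216 genes of rapeseed seedlings were strongly lower in 1 of 2 germplasm pools while the other pool stood near its control level. They were drawn from 96921 genes with an A or C chromosome identifier in a table of 109614. Members were chosen from the measured values, so their falls describe the choice and are not tested. The change of a pool was the mean log2(RPKM + 1) of its 3 submerged libraries minus that of its 3 control libraries, where RPKM is reads scaled by gene length and library size. A member changed by -1.2 or lower in the falling pool and by -0.4 to 0.4 in the other pool. In the falling pool its highest submerged value also lay below its lowest control value, and its control mean was at least 3 RPKM. The rule found 76 genes lower in the resistant pool only, called the resistant-only set, and 140 lower in the susceptible pool only, called the susceptible-only set.

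The groups were resistant submerged, resistant control, susceptible submerged and susceptible control seedlings of *Brassica napus*, with 3 biological replicates each. Seedlings grew for 1 week on moist paper, and the submerged groups then spent 24 h fully covered by distilled water. The labels' own terms for the pools are resistant and susceptible, and a pool blended seedlings of 5 unnamed germplasm in equal parts. A level is therefore a mean over 5 genotypes, and a gene that is silent in some of them cannot be told apart from one that is weak in all. In whole seedlings, fewer cells of a type and less RNA per cell cannot be told apart either. Relative depth, read from the spacing of the lowest values, ran from 0.637 to 1 of the deepest library, the first resistant control, and absolute depth is unknown.

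Submergence slows gas exchange and cuts light, and plants under water shift from respiration towards fermentation while they restrict costly growth and biosynthesis. Repression of transcripts is a large part of that shift, and in flooding-tolerant plants it is often read as energy saving. *B. napus* is an allotetraploid that carries an A subgenome from *B. rapa* and a C subgenome from *B. oleracea*, so most genes exist as near-identical copies. No name goes with an identifier in the deposited table, and none of the 123214 rows of the reference table matched one. Genes are therefore given by identifier, whose letter and number name the subgenome and chromosome and whose digits give the order along it. The seedling label was not checked against marker genes for the same reason.

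Repression confined to 1 pool by this rule was a small share of all strong repression. In the resistant pool, 1762 placed genes met the conditions on the falling pool. Of these, 1029 (58.4%) also changed by -1.2 or lower in the susceptible pool, 646 (36.7%) lay between that limit and -0.4, 76 (4.31%) lay within 0.4 of 0, and 11 lay above 0.4. In the susceptible pool, 1890 genes met them, of which 996 (52.7%) changed as strongly in the resistant pool, 740 (39.2%) lay in between, 140 (7.41%) lay within 0.4 of 0, and 14 lay above. The median change of all strong fallers in the other pool was -1.33 for resistant fallers and -1.25 for susceptible fallers. The members thus lie at the edge of one continuous cloud, as the plot of changes shows.

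**Figure D1:**
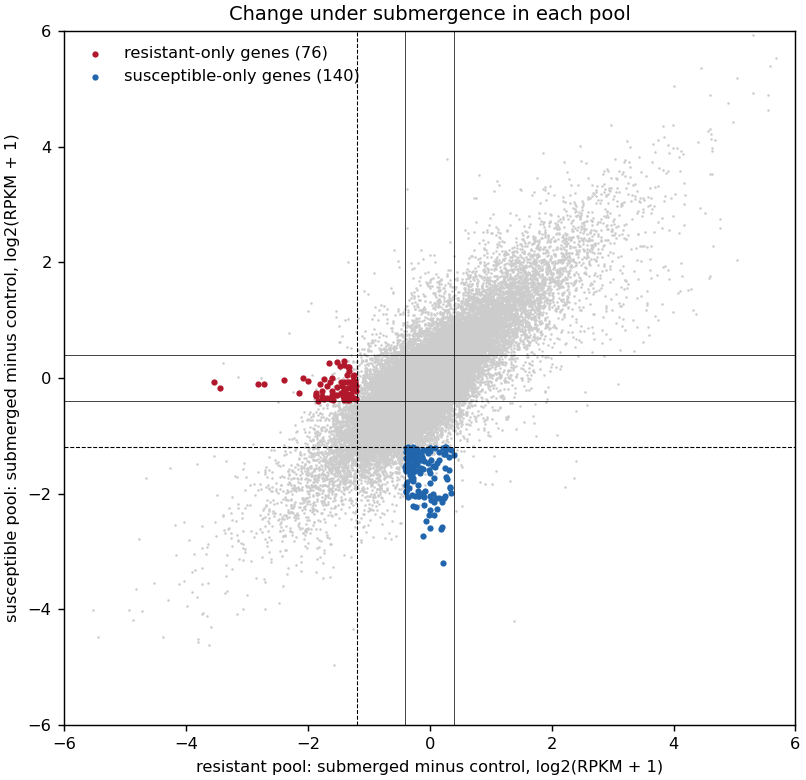
Change under submergence, submerged minus control in log2(RPKM + 1), of all tested genes (grey; 3 lie outside the axes), in the resistant pool (x axis) and the susceptible pool (y axis). The 76 resistant-only genes (red) and 140 susceptible-only genes (blue) fill the windows that the rule set, marked by solid lines at 0.4 either side of 0 and dashed lines at -1.2.

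The resistant-only genes had a median change of -1.42 in the resistant pool, with a range from -3.55 to -1.21, and of -0.18 in the susceptible pool. Their median level was 2.31, 3.14 and 3.03 RPKM in the resistant submerged and 11.8, 9.24 and 10.8 RPKM in the resistant control libraries. In the susceptible pool it was 3.84, 4.10 and 3.91 RPKM submerged and 5.03, 4.18 and 4.09 RPKM in controls. The resistant controls lay above all susceptible libraries and the resistant submerged ones below them. The median change of all 57391 tested genes (those at 1 RPKM or more in at least 3 libraries) was -0.22 for resistant and -0.19 for susceptible seedlings.

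The susceptible-only genes had a median change of -0.16 in the resistant pool and of -1.50 in the susceptible pool, where the lowest was -3.20. Their median level was 4.47, 4.34 and 5.02 RPKM in resistant submerged and 4.74, 6.73 and 5.30 RPKM in resistant control libraries. In the susceptible pool it was 2.02, 1.83 and 2.01 RPKM submerged and 9.37, 7.48 and 8.84 RPKM in controls. Here the susceptible submerged libraries lay below all others and the susceptible controls above all others.

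**Figure D2:**
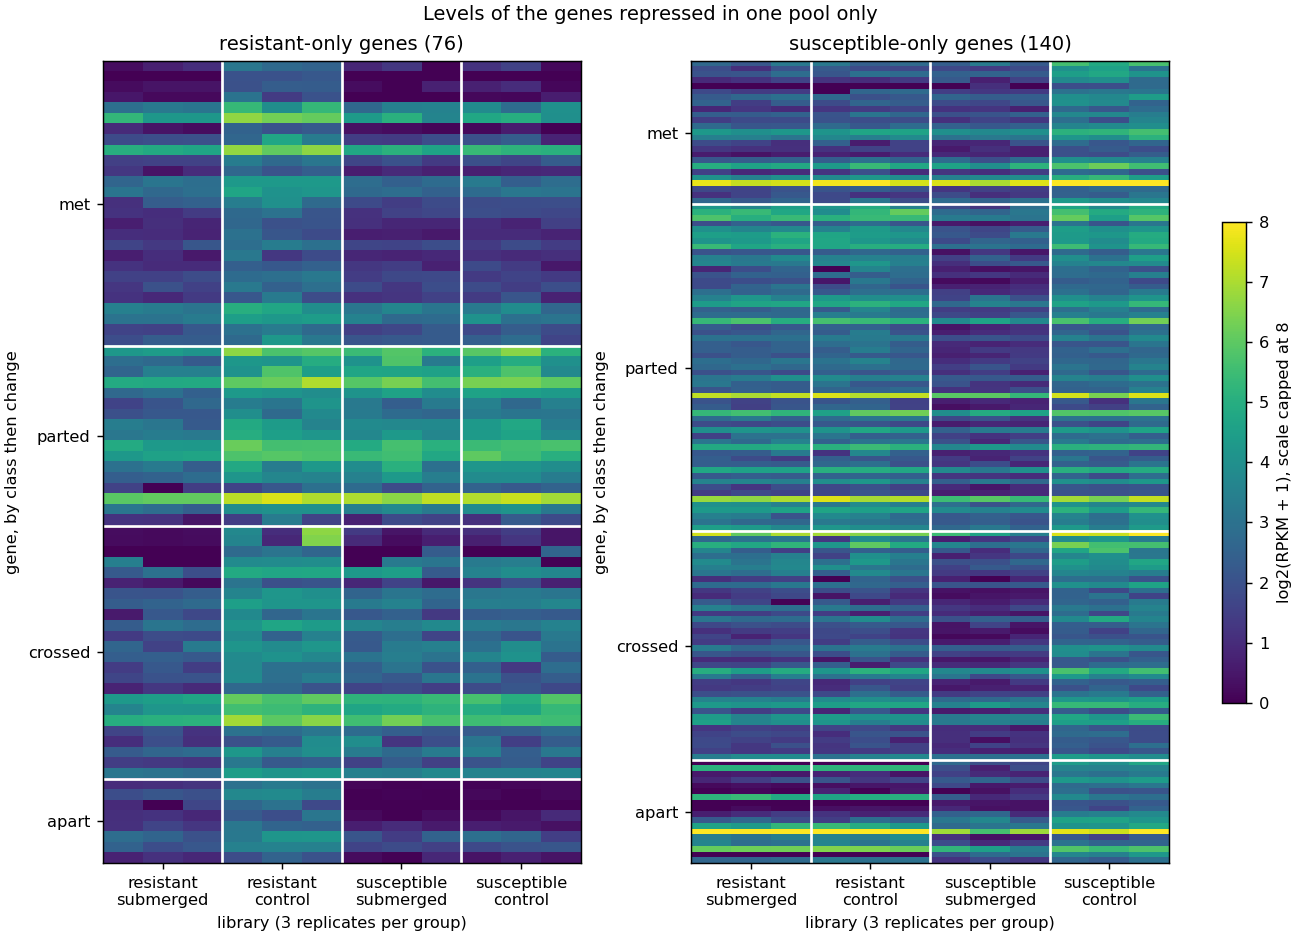
Level of every member, log2(RPKM + 1), in each of the 12 libraries (columns, 3 replicates per group), for the 76 resistant-only genes (left) and the 140 susceptible-only genes (right). Genes are grouped by where the pools stood, in the classes met, parted, crossed and apart. In the left panel the resistant control columns are the brightest, and in the right panel the susceptible submerged columns are the darkest.

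A gene can be repressed in 1 pool alone because the pools part under water, or because they differ in controls and meet there. Members were sorted by the resistant minus susceptible difference, on the log2(RPKM + 1) scale, in submerged and in control seedlings. A difference within 0.4 counted as level. These libraries chose the members, so the classes are a description. Genes are called parted where the pools were level in controls only and met where they were level under water only. They are called crossed where the falling pool was the higher one in controls and the lower one under water. They are called apart where 1 pool was higher in both conditions.

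Among the resistant-only genes, 27 of 76 (35.5%) met, 17 (22.4%) parted, 24 (31.6%) crossed and 8 (10.5%) stayed apart. The resistant pool was higher by more than 0.4 in controls in 59 of 76 genes (77.6%), against 19.8% of the 37245 placed genes at 3 RPKM or more in resistant controls. It was lower by more than 0.4 under water in 41 (53.9%), against 13.8% of those genes. The rule's limits on the changes push every member to such a difference in controls, under water or in both. Higher shares than among unselected genes are therefore built in and are no finding about the members. The median difference was -0.49 under water and 1.05 in controls. These are separate medians over the set and do not describe a single gene, as only the 24 crossed genes passed 0.4 in both directions.

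Among the susceptible-only genes, 25 of 140 (17.9%) met, 57 (40.7%) parted, 40 (28.6%) crossed and 18 (12.9%) stayed apart. The susceptible pool was higher by more than 0.4 in controls in 75 genes (53.6%), against 13.3% of the 35755 placed genes at 3 RPKM or more in susceptible controls. It was lower by more than 0.4 under water in 105 (75%), against 17.7%. As in the resistant-only set, the rule's limits on the changes build in higher shares than among unselected genes. The median resistant minus susceptible difference was 0.89 under water and -0.52 in controls. Parted genes were the most frequent class here and met genes the most frequent class in the resistant-only set, and the difference between the sets was not tested. The classes were sorted on the deposited scale only and were not repeated on another. On that scale the median resistant minus susceptible difference of all tested genes was 0.08 under water and 0.06 in controls. The part of scaling in the class counts was not tested. In all 8 resistant-only genes that stayed apart the resistant pool was the higher one, and in 10 of the 18 susceptible-only genes the susceptible pool was.

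**Figure D3:**
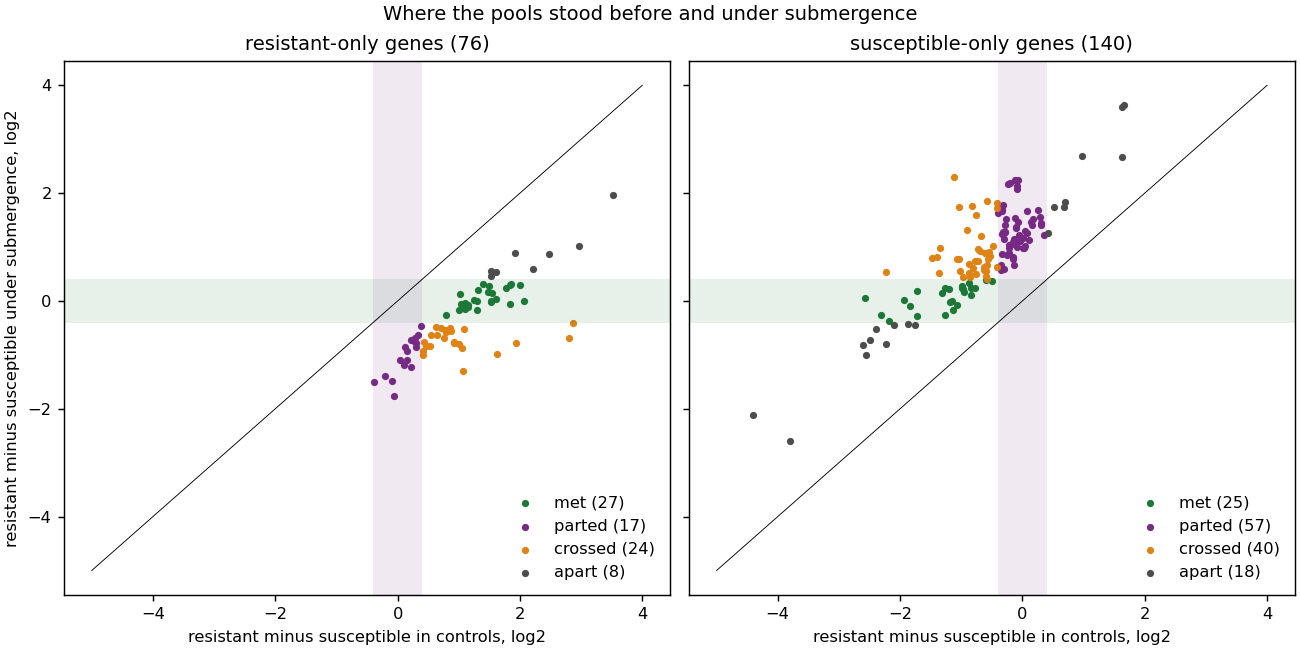
Resistant minus susceptible level, in log2(RPKM + 1), under submergence (y axis) and in controls (x axis) for each resistant-only gene (left, 76) and susceptible-only gene (right, 140), coloured by class. Bands mark differences within 0.4 of 0. Resistant-only genes lie below the diagonal and mostly right of the vertical band, and susceptible-only genes lie above the diagonal, 57 of them within the vertical band.

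Genes that parted fell in 1 pool from control levels that lay within 0.4 of each other. In the resistant-only set, BnaA02G0222800ZS on chromosome A02 had the highest control level. It stood at 60.6, 67.0 and 65.9 RPKM in resistant submerged against 142, 187 and 131 RPKM in resistant control libraries, and at 127, 96.5 and 151 RPKM in susceptible submerged against 134, 159 and 118 RPKM in susceptible control libraries. The 3 resistant submerged libraries lay below the other 9. BnaC02G0425100ZS on C02 lay near the edge of this class, at 5.45, 6.81 and 4.46 RPKM in resistant submerged and 18.7, 16.6 and 14.2 RPKM in resistant controls. Its susceptible libraries held 16.3, 23.3 and 13.99 RPKM submerged and 23.3, 22.5 and 19.3 RPKM in controls. Its resistant controls thus lay below every susceptible control, with a difference of -0.38 on the log2(RPKM + 1) scale. Over the 17 parted genes of the set, the median of the group means was 6.60 RPKM in resistant submerged and 19.7 RPKM in resistant controls, and 17.7 and 18.6 RPKM in susceptible submerged and control seedlings.

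The 57 parted genes of the susceptible-only set mirrored this at a lower level. The median of their group means was 6.10 RPKM in resistant submerged and 7.14 RPKM in resistant controls, and 2.21 and 7.55 RPKM in susceptible submerged and control seedlings. In 82 of the 140 susceptible-only genes (58.6%), all 3 susceptible submerged values lay below the other 9 libraries. The same held for the resistant submerged values in 24 of the 76 resistant-only genes (31.6%). All 3 falling-pool controls lay above the other 9 libraries in 41 resistant-only (53.9%) and 45 susceptible-only genes (32.1%). The rule already placed the falling pool's submerged values below its own controls, so part of this separation is built in. No share over all genes was computed for these counts, and the difference between the sets was not tested.

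Genes that met had a control level in the falling pool that the other pool did not reach. In the 27 met genes of the resistant-only set, the median group mean was 2.09 RPKM in resistant submerged and 6.88 RPKM in resistant controls, against 2.13 and 2.35 RPKM in susceptible submerged and control seedlings. In the susceptible-only set, BnaA09G0155600ZS on A09 held 5.49, 3.49 and 8.33 RPKM in resistant submerged and 8.33, 4.38 and 5.84 RPKM in resistant controls. Its susceptible libraries held 4.22, 8.64 and 3.81 RPKM submerged and 48.0, 28.0 and 49.7 RPKM in controls. Only the susceptible controls of this gene stood out, and the other 9 values overlapped. BnaA08G0059700ZS on A08 had the highest control mean of any member in its falling pool, with 186, 125 and 196 RPKM in susceptible submerged and 406, 539 and 275 RPKM in susceptible control libraries. Its resistant libraries ranged from 155 to 212 RPKM submerged and from 180 to 254 RPKM in controls, so that the susceptible submerged and all resistant values overlapped.

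Crossed genes stood higher in the falling pool before submergence and lower under it. BnaC02G0481700ZS on C02, of the resistant-only set, had 31.0, 32.6 and 34.4 RPKM in resistant submerged and 117, 62.1 and 94.2 RPKM in resistant control libraries. The susceptible pool held 45.7, 78.1 and 50.3 RPKM submerged and 45.1, 48.1 and 44.9 RPKM in controls, above every resistant submerged value and, except in 1 submerged library, below every resistant control. BnaA10G0172500ZS on A10 held 3.77, 6.88 and 2.80 RPKM in resistant submerged and 27.9, 25.5 and 25.9 RPKM in resistant controls. Its susceptible submerged values of 18.2, 21.2 and 3.91 RPKM spread around the control values of 10.6, 14.1 and 11.9 RPKM, so its small mean change hides libraries on either side. The lowest change of all susceptible-only genes was that of BnaA05G0409000ZS on A05, at -3.20. It stood at 43.5, 24.4 and 10.3 RPKM in susceptible submerged and 187, 163 and 323 RPKM in susceptible control libraries. Its resistant libraries held 174, 66.6 and 128 RPKM submerged and 121, 95.2 and 81.6 RPKM in controls. All of them lay above the susceptible submerged values, and all but the first submerged library lay below the susceptible controls.

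Some members could not have met the fall in the other pool because they were hardly expressed there. A gene with a control mean under 1.2 on the log2(RPKM + 1) scale, about 1.30 RPKM, cannot change by -1.2. This held for the susceptible controls of 18 of 76 resistant-only genes (23.7%) and the resistant controls of 12 of 140 susceptible-only genes (8.57%). Over all placed genes at 3 RPKM or more in controls of the falling pool, the shares were 1.03% and 0.699%. A gene near 0 also stays within 0.4 by construction, so these shares follow in part from the rule. In such genes no fall of that size could be measured in the other pool, and 11 resistant-only and 7 susceptible-only genes stayed under 1 RPKM in all 6 libraries of the other pool.

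BnaC01G0189200ZS on C01 was the resistant-only gene with the largest pool difference among those higher in the resistant pool. It held 2.72, 3.41 and 2.91 RPKM in resistant submerged and 12.2, 13.2 and 9.51 RPKM in resistant controls, while no susceptible library exceeded 0.12 RPKM. The adjacent identifier, BnaC01G0189100ZS, was also a member, at 1.02, 1.10 and 1.28 RPKM in resistant submerged and 6.89, 8.74 and 7.14 RPKM in resistant controls. It too was at 0.12 RPKM or less in every susceptible library. BnaC06G0130200ZS on C06 was listed at 0 in 9 libraries and at 3.02, 3.03 and 3.61 RPKM in the resistant controls alone. It and BnaC01G0189100ZS were named after their values were seen.

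In the susceptible-only set, BnaA09G0661100ZS on A09 was listed at 0 in all 6 resistant libraries. It stood at 5.72, 2.87 and 2.15 RPKM in susceptible submerged and 20.4, 15.3 and 25.9 RPKM in susceptible control libraries. Another 3 susceptible-only genes, and 2 resistant-only genes with BnaC06G0130200ZS among them, were listed at 0 in every library of the other pool. BnaC02G0321700ZS on C02 was the opposite case, a susceptible-only gene higher in the resistant pool throughout. It held 33.8, 33.1 and 35.6 RPKM in resistant submerged and 36.2, 35.9 and 36.9 RPKM in resistant controls. Its susceptible libraries held 2.75, 0.655 and 2.66 RPKM submerged and 10.9, 10.5 and 10.99 RPKM in controls, so neither pool overlapped the other.

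**Figure D4:**
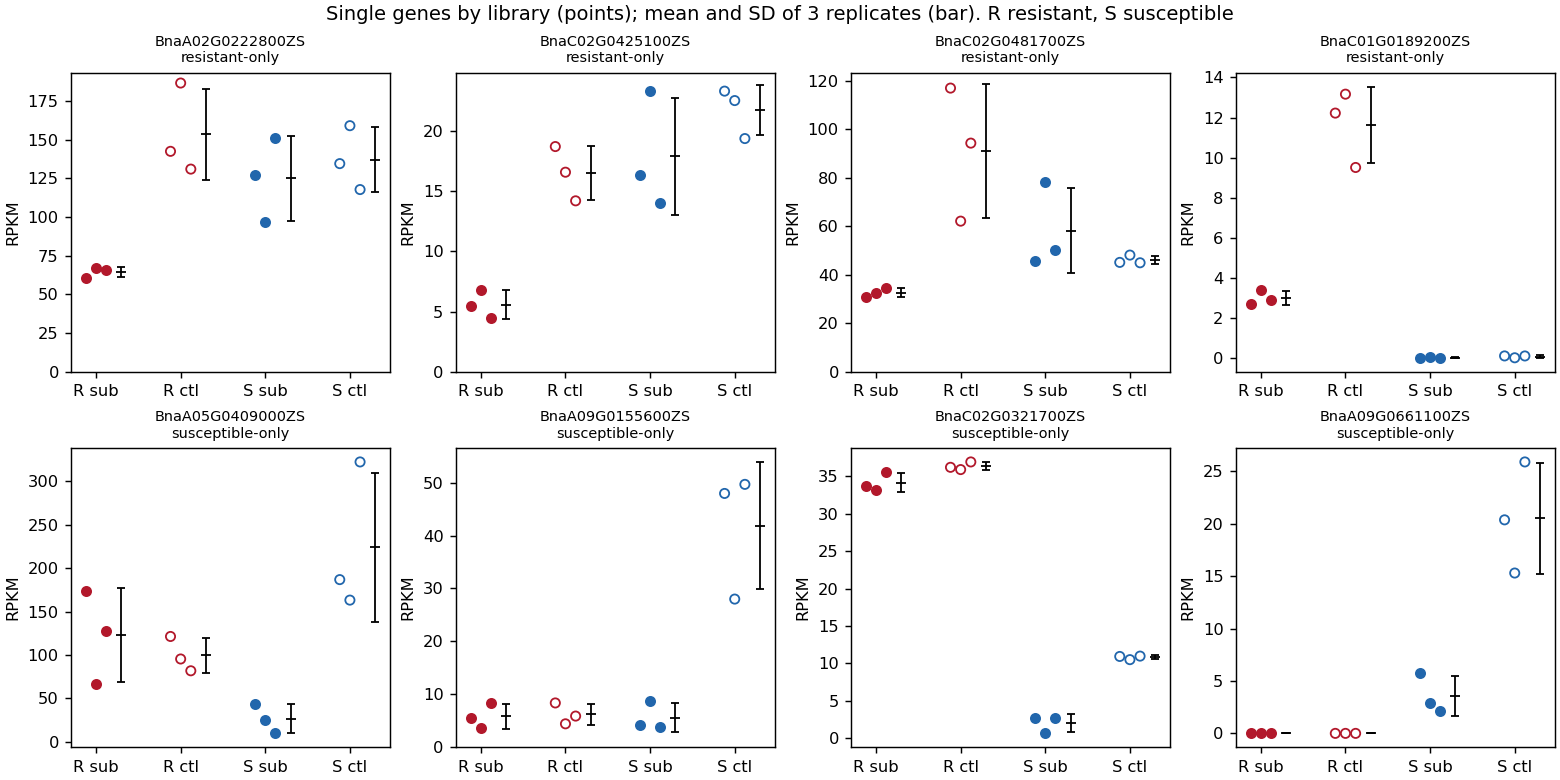
RPKM of 4 resistant-only genes (top) and 4 susceptible-only genes (bottom) in the resistant (red) and susceptible (blue) pools, submerged (filled points) and control (open points); each point is 1 library, and the bar beside each group is the mean with the SD of 3 replicates. The falling pool's submerged points lie below its control points in every panel, and BnaC01G0189200ZS and BnaA09G0661100ZS are near or at 0 in the other pool.

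The pool difference averaged over treatments is a measure that the rule's limits on change do not fix, since it sums where the rule subtracts. It was tested with limma over all tested genes, with Benjamini-Hochberg adjustment at 0.05. All 216 members passed the filter on low values. Across all tested genes, the resistant pool was called higher for 21.1% and lower for 8.93%. The split of these calls moved with the scaling, as 70.2% of them were higher on the deposited scale, 58.2% after quantile normalization and 52.7% after median ratio scaling. Where pools are level in 1 condition, the average carries 0.5 of the response difference by arithmetic, so parted genes lean away from the falling pool and met genes towards it. The counts that follow are therefore a description of the sets.

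The resistant pool was the higher one in 26 (34.2%) and the lower one in 2 (2.63%) of the 76 resistant-only genes. It was higher in 45 (32.1%) and lower in 22 (15.7%) of the 140 susceptible-only genes. These counts are on the deposited scale. After quantile normalization they were 21 and 2 (resistant-only) and 33 and 23 (susceptible-only). After median ratio scaling they were 22 and 3 (resistant-only) and 35 and 25 (susceptible-only). The floor of 3 RPKM on controls of the falling pool favours genes that are high there. The counts were therefore repeated with the floor in both pools, on the deposited scale only, a check added after seeing the data. Then the resistant pool was higher in 6 (13%) and lower in 2 (4.35%) of 46 resistant-only genes. With the same floor, 44 of 101 susceptible-only genes (43.6%) were higher and 7 (6.93%) lower, and over all 34114 placed genes at the floor in both pools the shares were 18.9% and 8.39%. The share of resistant-only genes higher in the resistant pool stood above the background with the floor in 1 pool and below it with the floor in both.

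**Figure D5:**
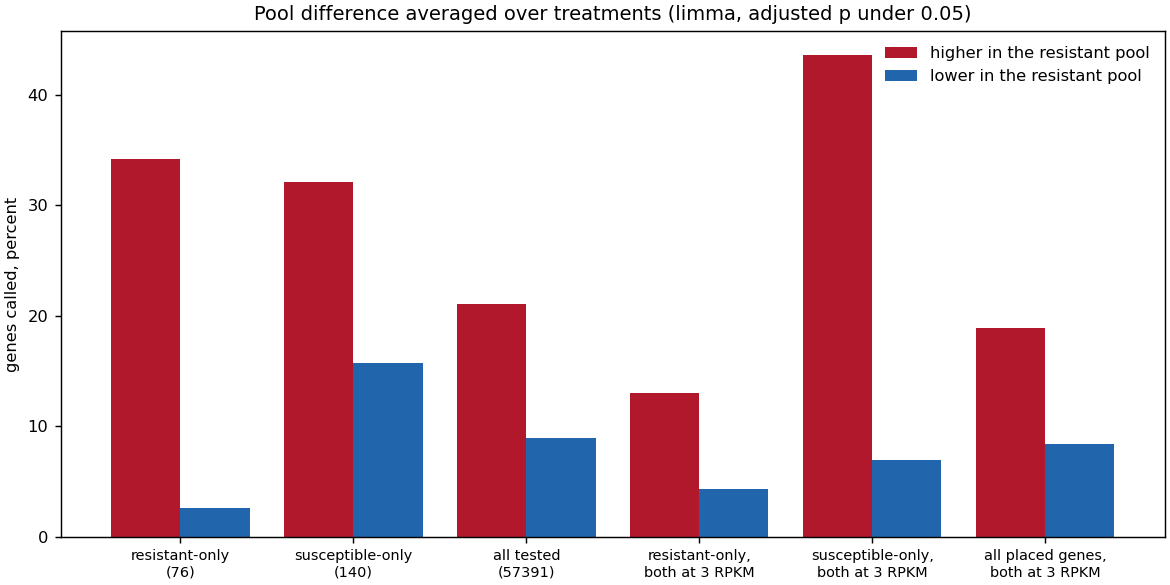
Percent of genes called higher (red) or lower (blue) in the resistant pool, averaged over treatments, for each set, for all tested genes, and for the same with at least 3 RPKM in controls of both pools. With that floor the higher share is 13% in the resistant-only set and 43.6% in the susceptible-only set, beside 18.9% of all placed genes.

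The members with the largest called averages in each set and direction were named for that size, so their values are given with no test. BnaC01G0189200ZS was higher in the resistant pool by 2.75 ± 0.09 on the log2(RPKM + 1) scale (SE), and higher in 6 of 6 resistant libraries. It passed the filter on low values through the resistant pool alone. BnaC02G0321700ZS was higher there by 2.65 ± 0.18 (SE), also in 6 of 6. BnaC02G0425100ZS differed by -0.94 ± 0.14 (SE), with the 3 resistant submerged values below all susceptible ones and the resistant controls overlapping the susceptible submerged values only. BnaA09G0661100ZS, listed at 0 throughout the resistant pool, passed the filter through the susceptible pool alone. Of the members named for another reason, BnaA09G0155600ZS differed by -1.26 ± 0.24 (SE), with overlap outside the susceptible controls. It is a met gene named for its low change. Its average thus holds part of the response difference that chose it and is a description. BnaA02G0222800ZS was not called on the deposited scale, at -0.38 ± 0.14 (SE, limma adjusted p = 0.0526). It is a parted gene, so its average is a description too.

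The difference between the 2 responses chose the members, and its calls are given as a description. Limma called 9 of the 76 resistant-only genes lower in the resistant response, beside 0.141% of all tested genes, and 10 of the 140 susceptible-only genes higher, beside 0.192%. The other 197 members met the rule on means without passing this test. The number of such calls over all tested genes depended on single libraries. There were 191, and 7 to 303 when any 1 library was left out, lowest without the first and highest without the second susceptible control. The calls of the members were not recounted in this way. For 14 resistant-only genes (18.4%) the 95% interval of the susceptible change reached -1.2, and for 7 susceptible-only genes (5%) that of the resistant change did. The interval rests on a spread shared by the 4 groups, so variable controls of the falling pool also widen it. It reached -2.24 for BnaC09G0212600ZS and -2.32 for BnaC09G0212400ZS, whose susceptible controls were too low for such a fall. Among these 21 genes, a fall as large in the other pool lies within the error only where there was room to fall.

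Replicates of the falling pool's controls differed by over 2-fold in 28 resistant-only (36.8%) and 45 susceptible-only genes (32.1%), against 9.48% and 10.9% of placed genes at the control floor. They differed by over 5-fold in 4 (5.26%) and 2 genes (1.43%), against 0.601% and 0.929% of those placed genes. Among resistant-only genes at 0.1 RPKM or more in every library, the 2 lowest changes were of this kind. The next lowest, that of BnaA10G0172500ZS at -2.39, was not, with resistant controls of 27.9, 25.5 and 25.9 RPKM. BnaC09G0212600ZS on C09, at -3.55, held 0.21, 0.15 and 0.21 RPKM in resistant submerged and 12.3, 1.06 and 98.2 RPKM in resistant control libraries. Its susceptible libraries ranged from 0.38 to 1.59 RPKM submerged and from 0.38 to 1.74 RPKM in controls, so the second resistant control lay among them. BnaC09G0212400ZS, 2 identifiers away and at -3.44, followed it library by library, at 0.18, 0.15 and 0.18 RPKM in resistant submerged and 11.3, 0.862 and 88.6 RPKM in resistant controls.

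Reads may be divided unevenly between near-identical copies. In 4 members, replicates of 1 group included a 0 as well as a value of 5 RPKM or above. These were 2 resistant-only (2.63%) and 2 susceptible-only genes (1.43%), against 0.215% and 0.241% of placed genes at the control floor of the falling pool. Of the resistant-only set, BnaC05G0290300ZS held 10.04 RPKM in the first and 0 in the other resistant submerged libraries, and 13.2, 13.6 and 14.1 RPKM in resistant controls. In the susceptible pool it was listed at 0 in the first submerged and the third control library and at 7.63 to 9.83 RPKM in the other 4. The values of this gene, named after they were seen, thus fall into 0 and a narrow range around 10 RPKM, and the part of read assignment in this was not tested.

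The limit of -1.2 cuts through a continuous range. BnaC08G0371600ZS was the resistant-only gene nearest inside it, at -1.21, with 1.27, 1.21 and 0.33 RPKM in resistant submerged and 1.73, 9.11 and 1.97 RPKM in resistant controls. BnaC08G0064200ZS was nearest outside, at -1.19, with 3.97, 3.38 and 1.93 RPKM in resistant submerged and 4.75, 15.5 and 7.07 RPKM in resistant controls. In the susceptible pool, BnaA03G0102600ZS lay inside with 5.56, 8.29 and 4.76 RPKM submerged and 18.6, 9.53 and 19.7 RPKM in controls, and BnaA03G0114800ZS outside with 10.01, 5.97 and 7.61 RPKM submerged and 27.1, 16.1 and 15.6 RPKM in controls. Both lay closer to the limit than the resistant pair, and 16 resistant-only and 33 susceptible-only genes lay within 0.1 of the limit. Only 12 of the 76 and 29 of the 140 members met the rule whichever library was left out. The sets held 74 to 146 and 121 to 212 genes then, the highest numbers being without the second resistant submerged library (146) and without the second susceptible control (212). On the median ratio scale, 36 and 73 of the members met the rule.

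The position of the members was not used by the rule. Of the resistant-only genes, 30 (39.5%) lay on the A and 46 (60.5%) on the C subgenome, where 49.1% and 50.9% of genes at the resistant control floor lay. Of the susceptible-only genes, 75 (53.6%) lay on A and 65 (46.4%) on C, beside 49.5% and 50.5%. C02 held 8 resistant-only (10.5%) and 10 susceptible-only genes (7.14%), beside 4.74% and 4.36% of genes at the floor. No resistant-only gene lay on A01, which held 9 susceptible-only genes, and C08 held 7 resistant-only and 3 susceptible-only genes. These are counts of few genes and were not tested.

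In identifier order, 9 gaps between successive members were 5 steps or fewer. Among them, 3 members on C02 spanned 5 steps, and all were higher in the resistant pool, although they belonged to different sets. BnaC02G0321200ZS, a susceptible-only gene, held 9.79, 7.53 and 9.99 RPKM in resistant submerged and 10.8, 8.97 and 14.6 RPKM in resistant controls. Its susceptible libraries held 1.18, 0.292 and 0.411 RPKM submerged and 3.60, 1.83 and 3.77 RPKM in controls. BnaC02G0321400ZS, a resistant-only gene, held 1.10, 1.25 and 0.845 RPKM in resistant submerged and 3.96, 2.77 and 7.77 RPKM in resistant controls, and stayed under 1 RPKM in every susceptible library. The last of the 3 was BnaC02G0321700ZS, whose values are given above. The averaged pool difference was 2.15 ± 0.18 for BnaC02G0321200ZS (SE) and 1.41 ± 0.20 for BnaC02G0321400ZS (SE), on the log2(RPKM + 1) scale. These neighbours were picked out after their values were seen, so no test is given.

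A pair of neighbours on A03 ran in parallel. BnaA03G0317300ZS and BnaA03G0317500ZS, both susceptible-only genes, held 8.81, 8.75 and 7.50 RPKM and 6.61, 7.21 and 5.91 RPKM in susceptible submerged libraries. In susceptible controls they held 67.3, 21.7 and 58.0 RPKM and 43.7, 16.4 and 40.1 RPKM, with the second library lowest in each gene. BnaC09G0170800ZS on C09 and BnaA09G0155700ZS on A09 also ran in parallel although they lie on different subgenomes. BnaA09G0155600ZS, 1 step from BnaA09G0155700ZS, did not follow its neighbour: its second susceptible control was the lowest of the 3, and that of BnaA09G0155700ZS the highest. In the susceptible pool BnaC09G0170800ZS and BnaA09G0155700ZS held 0.593, 1.34 and 2.26 RPKM and 0.641, 1.40 and 2.29 RPKM submerged, and 13.6, 17.7 and 9.12 RPKM and 11.7, 14.7 and 8.02 RPKM in controls. In resistant controls they held 1.44, 14.2 and 7.48 RPKM and 2.00, 15.2 and 9.98 RPKM. Whether these pairs are copies that share reads is not given in the sources used here and was not tested.

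The nearest tested genes on either side of the members, members left out, moved little in the median. For 149 neighbours of resistant-only genes the median change was -0.24 for resistant and -0.19 for susceptible seedlings. For 275 neighbours of susceptible-only genes it was -0.20 for resistant and -0.34 for susceptible seedlings. A change of -1.2 or lower in the falling pool was found in 11 (7.38%) and 20 (7.27%) of the neighbours, beside 3.69% and 4.08% of all placed tested genes.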

How the data were processed

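The authors deposited RPKM values of 109614 genes in 12 libraries, 1 column per library; HISAT2 and StringTie are named in the submitters' processing notes, without version or role, and the sources used here give neither genome build nor annotation. Count models do not suit RPKM and were not used; reads shared by near-identical A and C copies can be split or lost. Per the labels' protocols, RNA was polyadenylated and replicates are biological. Groups come from the titles. The table has no columns of other samples, no 2 libraries were identical (70.6% or more of the genes differed between any pair), and 21106 genes were listed at 0 throughout.

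Values were taken as log2(RPKM + 1) with no further scaling, which understates changes of weak genes. The 57391 genes that reached 1 RPKM in 3 or more libraries were tested with limma 3.58.1 in R 4.3.3 (group means of all 12 libraries, trended prior variance, 8 residual and 3.35 prior degrees of freedom, 2-sided, Benjamini-Hochberg at 0.05), and checked on simulated data. Without the absolute depth, counting intervals were not computed. Python 3.11.15 and matplotlib 3.10.9 drew the plots. The members, lists and tests were chosen with earlier results of these data known.

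Genes were named by rule in each set: the 3 lowest changes among members at 0.1 RPKM or more in every library, the 2 highest control means, the largest called pool difference in each direction, and the gene nearest inside and outside the limit of -1.2; others are said to be named after their values were seen. BnaC05G0290300ZS, BnaA09G0155700ZS and both A03 neighbours are among those. Alternatives were another pseudocount, filters, 2 scalings, centred changes, a control floor in both pools, the replicate number as a block, and leaving out each library.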

Additional observations from a re-analysis of the deposited data

Results flagged for a closer look

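For 3 genes named above, the response differed between the pools by limma's test of the difference. All 3 were chosen for that difference, so it is a description. The log2(RPKM + 1) change of the resistant pool minus that of the susceptible pool was -1.57 for BnaC01G0189200ZS, 1.97 for BnaC02G0321700ZS and 2.28 for BnaA09G0661100ZS. BnaC01G0189200ZS was at 0.12 RPKM or less in all susceptible libraries and BnaA09G0661100ZS was listed at 0 in all resistant ones, so in these 2 genes the other pool had no room to fall.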

How the results depend on the processing

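Membership depended on single libraries and on the scale. Leaving out 1 library gave 74 to 146 resistant-only genes, the highest without the second resistant submerged library, and 121 to 212 susceptible-only genes, the highest without the second susceptible control. With a pseudocount of 0.1 there were 122 resistant-only genes, 59 of them shared with the 76, and with the control floor in both pools 46. Median ratio scaling kept 36 of 76 and 73 of 140 members, and centred changes 34 and 77. With that scaling the median change of all tested genes was -0.03 for resistant and 0.03 for susceptible seedlings, against -0.22 and -0.19 as deposited.

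For the averaged pool difference, resistant-only genes called higher numbered 6 with the stricter filter (a mean of 5 RPKM), 6 with the control floor in both pools and 12 among genes with room to fall in the other pool; those called lower numbered 1 without a filter and 1 to 6 without single libraries, with 1 without the second resistant submerged, first susceptible control or second susceptible control library and 6 without the third susceptible control. Susceptible-only genes called lower numbered 10, 7 and 11 under the same 3 conditions, which leave fewer members. Over all tested genes the stricter filter, which tests fewer, gave 5416 higher and 2917 lower, 12067 calls of the resistant and 12529 of the susceptible response, and 107 of the response difference. That last count was 191 on the deposited scale and 7 to 303 without single libraries, each of which moved it by over 1.5 times.

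With the replicate number as a block, 41 response differences were called, and the members called higher and lower for the averaged difference were 27 and 2 (resistant-only) and 40 and 21 (susceptible-only). Same-numbered submerged and control libraries of a pool correlated in their deviations from -0.31 to 0.39. Differently numbered libraries were not compared with these, so whether the numbers pair the samples is not settled. The averaged difference of BnaC02G0481700ZS was -0.036 with median ratio scaling. Without single libraries it ran from -0.026 to 0.20, that of BnaA10G0172500ZS from -0.46 to 0.084 and that of BnaC08G0371600ZS from -0.34 to 0.13; none of these 3 was called under any setting, and the cause was not tested. The averaged difference of BnaA09G0155600ZS was called in every setting that tested it, and that of BnaA02G0222800ZS in 4 of 18 settings. Both averages hold part of the response difference that chose the genes, so these calls are a description.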
